A study of Homo sapiens with 6 samples.

Results

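Core sites are the places where a glucocorticoid receptor (GR) peak was called in every dexamethasone list of the study, that is in all 3 lists of the GR cell and all 3 lists of the MR/GR cell. Peaks sharing at least 1 bp were merged over the 6 dexamethasone lists, which gave 43713 sites, and 3017 of these had a peak in all 6 lists (6.90%). The sites were chosen by the peak calls of these 6 lists, so this share is a description. A single core site lay outside the numbered chromosomes and X, which held the other 3016.

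GR was mapped by chromatin immunoprecipitation and sequencing in stable derivatives of U-2OS, a human osteosarcoma line. The GR cell was used to study GR alone, and the MR/GR cell expressed the mineralocorticoid receptor (MR) together with GR. The treatment was vehicle (DMSO) or 100 nM of the synthetic glucocorticoid dexamethasone for 2 hr, and a GR antibody was used for the precipitation. Each of the 4 combinations is 1 labelled sample with 3 numbered peak lists. Input DNA was sampled once per line, labelled as dexamethasone-treated in the GR cell and as vehicle-treated in the MR/GR cell. How the receptors were introduced, whether either line is a single clone and how much receptor each holds were not analysed here. Nothing in the labels ties the 3 lists of a sample to separate cultures, and p-values here may therefore reflect technical spread alone.

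GR is a steroid hormone receptor that rests largely in the cytoplasm, bound to chaperones, until a ligand such as dexamethasone releases it to the nucleus. There it binds DNA as a dimer at glucocorticoid response elements, imperfect palindromes of a short repeated motif, and it is also drawn to chromatin through other factors. MR is its closest relative, recognises the same elements and can pair with GR. Many GR sites lie far from gene starts, often several to one responsive locus.

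The 6 dexamethasone lists differ greatly in length. The GR-cell lists held 37650, 30912 and 26191 peaks, and the MR/GR-cell lists held 3713, 10459 and 6660. The 6 vehicle lists held between 11 and 238 peaks. Within a list all peaks have one width (a single peak of GR-cell dexamethasone list 2 excepted), so a width says nothing about a site. The lists give no height or score, and read depth is unknown. MR/GR-cell list 1, the shortest, stands apart, and the main shares are also given without it, with the other 5 lists required (an alternative added after seeing the data).

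Core sites took up a small part of each GR-cell list and a large part of each MR/GR-cell list. They held 8.01%, 9.76% and 11.5% of the peaks of GR-cell lists 1, 2 and 3. In the MR/GR cell they held 81.3% of list 1, 28.8% of list 2 and 45.3% of list 3. No core site had more than 1 peak from the same list, so each list contributed 3017 peaks and these shares are set by list length. Among the 22935 sites that every GR-cell list held, 13.2% were core, and among the 3228 that every MR/GR-cell list held, 93.5% were. Without MR/GR-cell list 1 these shares were 21.5% and 87.4%. Requiring the GR-cell lists therefore removed few places, and requiring the MR/GR-cell lists removed most.

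The other merged sites are described in 3 classes. Partly shared sites (4862) had a peak in every GR-cell list and in 1 or 2 MR/GR-cell lists. GR-cell-only sites (15056) had a peak in every GR-cell list and in no list of the MR/GR cell. The remaining 20778 sites, called less reproducible sites here, were missing from at least 1 GR-cell list.

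Sites that missed the rule by 1 list were mostly those absent from MR/GR-cell list 1. There were 2245 sites in exactly 5 lists. Of these, 1905 (84.9%) lacked MR/GR-cell list 1, 174 lacked list 3 and 71 lacked list 2. Only 69 lacked GR-cell list 3, 23 lacked list 2 and 3 lacked list 1. The order follows the lengths of the lists in both lines, with the shortest list of a line missing most often. With MR/GR-cell list 1 left out and the other 5 lists required, 4921 sites met the rule.

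Each list could be set against sites defined without it. Sites in the other 5 lists were found in a left-out GR-cell list in 99.9% (list 1), 99.2% (list 2) and 97.8% (list 3) of cases. For a left-out MR/GR-cell list the share was 61.3% for list 1, 97.7% for list 2 and 94.5% for list 3. These shares largely restate the counts of sites in exactly 5 lists given above. Of all merged sites, GR-cell lists 1 to 3 held 86.1%, 70.7% and 59.9%. MR/GR-cell lists 1 to 3 held 8.49%, 23.9% and 15.2% of them. Sites in 4 of the other 5 lists were found less often in each left-out list. In MR/GR-cell list 1 the share was 10.9% (Wilson 95% interval 9.85 to 12, against 59.9 to 62.6 for sites in 5 lists), in list 2 it was 75.03% and in list 3 it was 49.9%. In the GR-cell lists it was 99.4%, 95.2% and 93.8%. Each of these intervals covers counting error over sites only, and the 6 comparisons share their lists, so no test is given. A site of 5 lists was thus nearly always present in the remaining one, except where the remaining one was MR/GR-cell list 1.

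**Figure D1:**
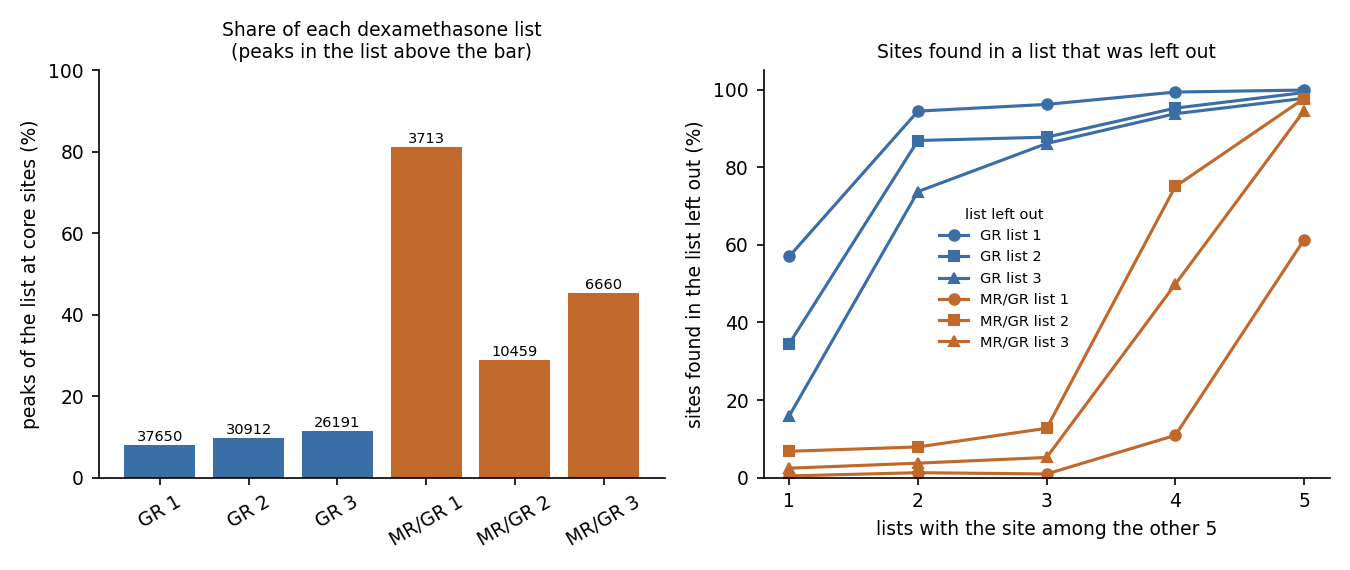
Left, bars give the percent of the peaks of each dexamethasone list that lie at core sites (blue, GR cell; orange, MR/GR cell), with the number of peaks in the list above the bar. Right, points give the percent of sites found in a list that was left out (one line per list), by the number of the other 5 lists with the site; the GR-cell lines lie near the top from 4 lists on, and MR/GR-cell list 1 reaches 61.3% at 5 lists.

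The 6 peaks of a core site lay close to one another, which the merging of overlapping peaks in part fixes in advance. A merged core site was 424 to 882 bp long with a median of 428 bp, which is little more than the 424 bp of the widest list. No core site could be shorter than a peak of that list. The range of the 6 peak centres at a site had a median of 69 bp (quartiles 47 and 98 bp). Averaged over the 3 lists of a line, the centres of the lines were within 50 bp of each other at 2750 core sites (91.2%, Wilson 95% interval 90.1 to 92.1). The median size of this offset was 16.7 bp, and its median with sign, GR cell minus MR/GR cell, was 2.33 bp.

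Pairs of lists gave the same picture. The median distance between the centres of a pair was 17 to 19 bp over the 3 pairs of GR-cell lists, 25 to 32 bp over the 3 pairs of MR/GR-cell lists and 21 to 32 bp over the 9 pairs between the lines. The 5 pairs with MR/GR-cell list 1 measured 30 to 32 bp, and the 6 pairs between the lines without it measured 21 to 26 bp. The single MR/GR-cell pair without list 1 measured 25 bp, within the range of the pairs between the lines without it.

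Peak centres in the GR cell lay more tightly together at core sites than at other sites of the same 3 lists. The range of the 3 GR-cell centres had a median of 32 bp at core sites (quartiles 18 and 50 bp). It was 38 bp at the 1905 sites that lacked MR/GR-cell list 1 alone. It was 41 bp at partly shared sites and 51 bp at GR-cell-only sites. With classes made without MR/GR-cell list 1 the medians were 34, 42 and 51 bp. The GR-cell centres fell within 50 bp at 75.6% of core sites (Wilson 95% interval 74.0 to 77.1), 62.7% of partly shared sites (61.3 to 64.04) and 49.5% of GR-cell-only sites (48.7 to 50.3). Each of the 3 pairs of GR-cell lists showed this order, with median offsets of 17, 19 and 19 bp at core sites, 22, 26 and 25 bp at partly shared sites, and 28, 32 and 31 bp at GR-cell-only sites. The rule used these lists, so the order is a description. The intervals cover counting error over sites only.

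**Figure D2:**
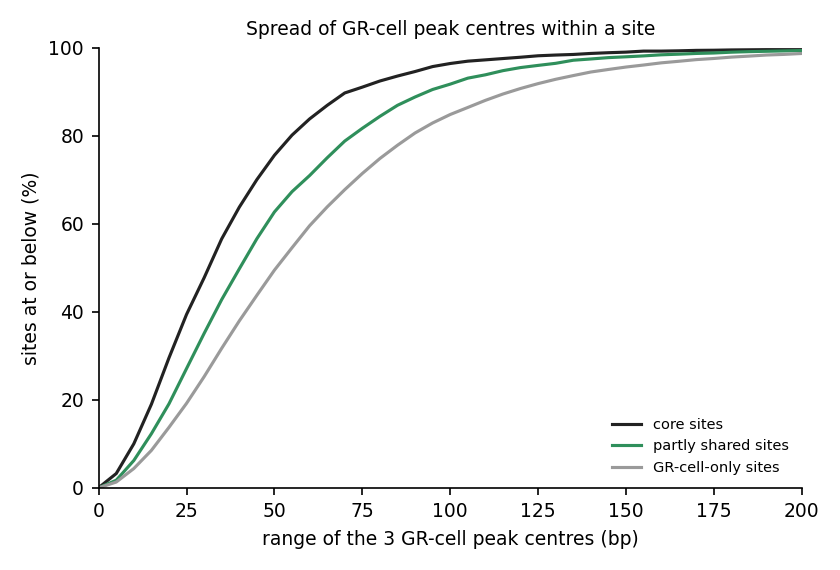
Curves give the percent of sites (vertical axis) whose 3 GR-cell peak centres span at most the distance on the horizontal axis, in bp, for core sites (black), partly shared sites (green) and GR-cell-only sites (grey). The black curve is the steepest, with a median of 32 bp against 41 and 51 bp.

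The core sites with the smallest range of all 6 centres show how closely the lists can coincide. At chromosome 13, 111133128 to 111133551 (hg19 coordinates counted from 1, here and below), the centres spanned 4.0 bp. The GR-cell centres were at 111133339.5, 111133338.5 and 111133339.5, and the MR/GR-cell centres were at 111133337.5, 111133336.5 and 111133335.5. No other site lay within 10 kb of it, and the nearest was 32.3 kb away. At chromosome 22, 41806333 to 41806756, the span was also 4.0 bp, with all 3 GR-cell centres at 41806544.5 and the MR/GR-cell centres at 41806542.5, 41806543.5 and 41806540.5. The next 3 were chromosome 10, 74002314 to 74002737 (9.0 bp), chromosome 22, 27633074 to 27633497 (9.0 bp), and chromosome 9, 33162934 to 33163357 (10 bp). None of these 5 sites had a vehicle peak. They were chosen for this range, so it is a description, and sites on chromosome 8 were left out of the choice.

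Within 10 and 50 kb, core sites lay in more crowded surroundings than GR-cell-only and less reproducible sites. Against the same target, all 43713 merged sites, 49.7% of core sites had another site within 10 kb, centre to centre (1498 of 3017, Wilson 95% interval 47.9 to 51.4). The share was 44.7% for partly shared sites (43.3 to 46.1), 36.8% for GR-cell-only sites (36.0 to 37.5) and 38.2% for less reproducible sites (37.6 to 38.9). It was 42.7% for the sites that lacked MR/GR-cell list 1 alone (40.5 to 44.9). With classes made without that list, the shares of core and partly shared sites were 46.8% (45.4 to 48.2) and 46.04% (44.2 to 47.9), whose intervals overlap, and those of the other classes were 36.8% and 38.2%. Within 50 kb the shares were 89.9%, 86.6%, 81.8% and 81.0%. Within 2 kb they were, in the same order, 11.8% (10.7 to 13.0), 9.79%, 7.19% and 10.4% (9.98 to 10.8). The intervals of core and less reproducible sites overlapped there. Core sites had on average 0.696 other sites within 10 kb, against 0.596, 0.471 and 0.506 in the other classes. At the other end, 304 core sites (10.1%) had no other site within 50 kb, a smaller share than in each of the other classes.

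Core sites were also near one another. Another core site lay within 10 kb of 347 core sites, or 11.5% (Wilson 95% interval 10.4 to 12.7), and within 50 kb of 29.1%. A core site lay within 10 kb of 6.36% of partly shared sites (5.70 to 7.08), of 2.97% of GR-cell-only sites (2.71 to 3.25) and of 4.08% of less reproducible sites (3.82 to 4.35). For the sites that lacked MR/GR-cell list 1 alone the share was 6.19% (5.20 to 7.37). With classes made without that list, the gap to partly shared sites was smaller. The shares were then 13.2% for core sites, 9.93% for partly shared, 4.69% for GR-cell-only and 6.19% for less reproducible sites. The median distance from a core site to the nearest other core site on its chromosome was 142 kb (quartiles 37.7 and 461 kb), the smallest was 0.941 kb, and 326 core sites (10.8%) had none within 1 Mb. Among all sites in 3 GR-cell lists, 45.7% were core where another core site lay within 2 kb (86 of 188), 28.5% at 2 to 10 kb, 18.5% at 10 to 50 kb, 15.5% at 50 to 200 kb, 10.3% at 200 to 1000 kb and 7.91% beyond that. The share fell at each step of distance, and without MR/GR-cell list 1 it also fell at each step, from 51.4% to 12.8%.

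Sites that were not core followed the same order around core sites. Of the sites in 3 GR-cell lists outside the core, 51.0% had a peak in 1 or 2 MR/GR-cell lists when a core site lay within 2 kb (52 of 102, Wilson 95% interval 41.4 to 60.5). The share was 39.3% at 2 to 10 kb (35.6 to 43.1), 32.2% at 10 to 50 kb, 26.1% at 50 to 200 kb, 22.5% at 200 to 1000 kb and 18.6% beyond 1000 kb (17.4 to 19.9). With classes made without MR/GR-cell list 1 the share fell at each step from 40.0% to 10.7%. Taken singly, each MR/GR-cell list showed this order, though all 3 lists also defined the core sites. From the nearest to the farthest distance the share went from 5.88% to 0.843% in list 1, from 42.2% to 15.5% in list 2 and from 25.5% to 10.3% in list 3. Within each of the 23 chromosomes, sites within 50 kb of a core site were held more often than sites beyond 200 kb, with a median difference of 12.5 percentage points (2.70 to 30.6).

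The share was lower next to sites of the other classes. Sites outside the core with a core site within 10 kb had a peak in 1 or 2 MR/GR-cell lists in 40.9% of cases (309 of 756, Wilson 95% interval 37.4 to 44.4). Sites with some other site but no core site within 10 kb had one in 26.8% (25.8 to 27.9), and sites with none within 10 kb in 22.02% (21.3 to 22.8). These shares come from the lists that the rule used, and neighbouring sites are not independent, so they carry no test.

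**Figure D3:**
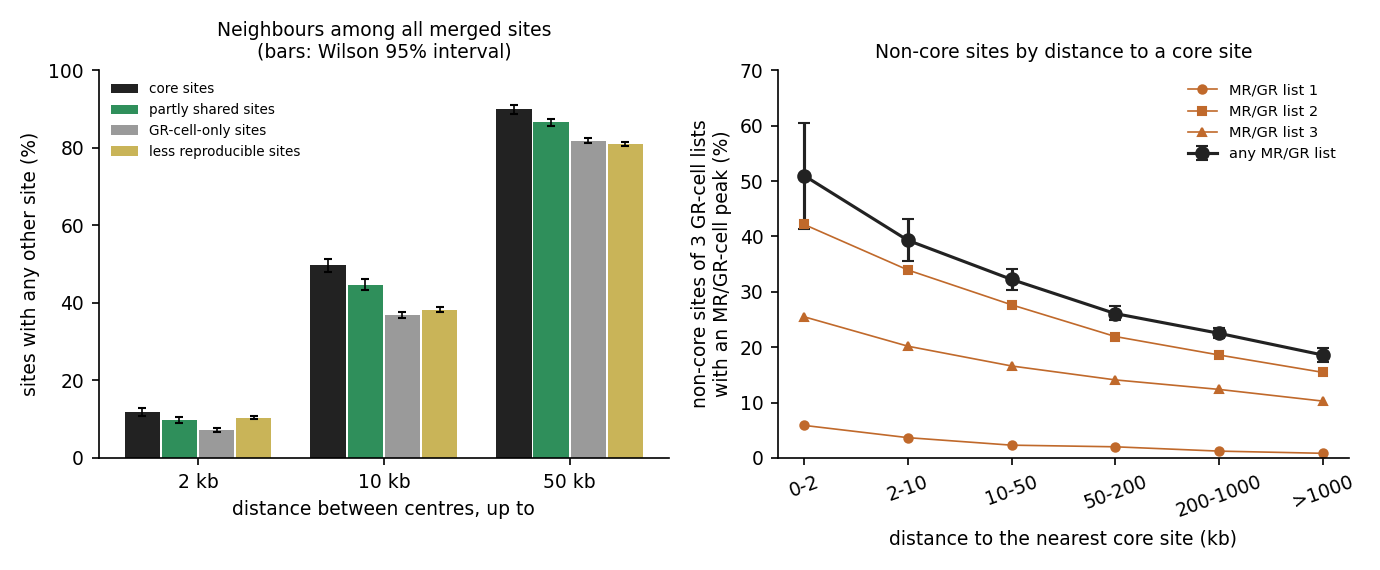
Left, bars give the percent of sites of each class with any other merged site within 2, 10 or 50 kb, with Wilson 95% intervals; core sites (black) are highest at each distance, with 49.7% at 10 kb. Right, the percent of sites in 3 GR-cell lists outside the core that had a peak in 1 or 2 MR/GR-cell lists (black, with Wilson 95% intervals) or in a given MR/GR-cell list (orange), by distance to the nearest core site in kb; each line falls with distance.

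When core sites with centres at most 10 kb apart were chained, 162 groups of 2 or more held 347 core sites, and 2670 core sites stood alone. There were 146 pairs, 12 groups of 3, 2 groups of 4, 1 group of 5 and 1 group of 6. Core groups of more than 2 sites were thus rare, and the 5 with most sites (ties by shorter span) are given here.

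The group of 6 was on chromosome 11, 114025142 to 114050343, over 25.2 kb, with neighbouring centres 1.09 to 7.89 kb apart. From 10 kb before it to 10 kb after it there were 7 merged sites, of which the 3 GR-cell lists held 7, 7 and 6 and each MR/GR-cell list held 6. The only site there outside the core was a GR-cell site absent from GR-cell list 3. No vehicle list had a peak in the group. The group was chosen for its number of core sites, so the likeness of the lists here is fixed by the choice.

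The group of 5 was on chromosome 6, 35683172 to 35700042, over 16.9 kb. It was the only one of the 5 groups with vehicle peaks, 1 in GR-cell vehicle list 1, none in list 2 and 2 in list 3, against none in any MR/GR-cell vehicle list. With 10 kb on either side it had 6 merged sites, and each MR/GR-cell dexamethasone list held 5 of them.

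The groups of 4 were on chromosome 10, 74002314 to 74015254, over 12.9 kb, and on chromosome 4, 55882017 to 55904822, over 22.8 kb. On chromosome 10 the surroundings held 6 sites, of which the GR-cell lists had 5, 5 and 4 and the MR/GR-cell lists 4, 6 and 4. MR/GR-cell list 2 was the only list with all 6 there. On chromosome 4 all 4 sites were core and no other site lay within 10 kb of the group. The shortest of the 12 groups of 3 was on chromosome 22, 41806333 to 41814358, over 8.03 kb, again with no site other than its core sites within 10 kb. It includes one of the sites at which the 6 centres spanned 4.0 bp.

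Core sites were then set against the vehicle lists, which the rule did not use. Peaks called without ligand were rare at core sites, as they were at other sites. At least 1 vehicle list had a peak at 22 of the 3017 core sites, or 0.729% (Wilson 95% interval 0.482 to 1.10), against 422 of all 43713 merged sites (0.965%). Without MR/GR-cell dexamethasone list 1, 37 of 4921 core sites had one (0.752%, 0.546 to 1.03). All 22 were in GR-cell vehicle lists, where all merged sites gave 0.787%. One was in MR/GR-cell vehicle lists, 0.0331% of core sites (0.00585 to 0.188), where all merged sites gave 0.249%.

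List by list, GR-cell vehicle lists 1, 2 and 3 had a peak at 4, 13 and 11 core sites, which is 0.133%, 0.431% and 0.365% of core sites. At the other merged sites the shares were 0.231%, 0.393% and 0.418%. MR/GR-cell vehicle lists 1, 2 and 3 each had a peak at 1 core site (0.0331%), and at other sites the shares were 0.238%, 0.0123% and 0.0663%. Core sites were lower in 4 of the 6 vehicle lists and higher in the other two.

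The mean difference, core minus other sites, was -0.0552 percentage points (SE 0.0362, n = 6 lists), and an exact sign-flip permutation test over the 6 lists gave p = 0.219 (two-sided; the smallest possible is 0.03125). It was -0.00658 without MR/GR-cell dexamethasone list 1 and -0.0252 without MR/GR-cell vehicle list 1, with the same sign. A difference was therefore not detectable with these lists, in which most core sites had no vehicle peak. Vehicle lists are short, and a place without a peak may lie under the calling threshold.

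The other classes gave differences of both signs. Partly shared sites had vehicle peaks more often than core sites in 5 of the 6 lists, at 0.535%, 0.802% and 0.555% in the GR-cell vehicle lists and 0.432%, 0.00% and 0.103% in the MR/GR-cell ones. The difference, core minus these, was -0.233 points (SE 0.0763, exact sign-flip permutation p = 0.0625, adjusted p = 0.208 by Benjamini-Hochberg over 5 comparisons). Against GR-cell-only sites it was 0.0528 points, higher at core sites in 5 of 6 lists (SE 0.0324, exact permutation p = 0.125, adjusted 0.208). Against the 1905 sites that lacked only MR/GR-cell list 1 it was -0.126 points, lower at core sites in 5 of 6 lists (SE 0.0613, exact permutation p = 0.0938, adjusted 0.208). Against all other sites in 3 GR-cell lists it was -0.0170 points, with core sites higher in 4 of 6 lists (SE 0.0292, exact permutation p = 0.625, adjusted 0.625). None of the 5 passed 0.05.

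**Figure D4:**
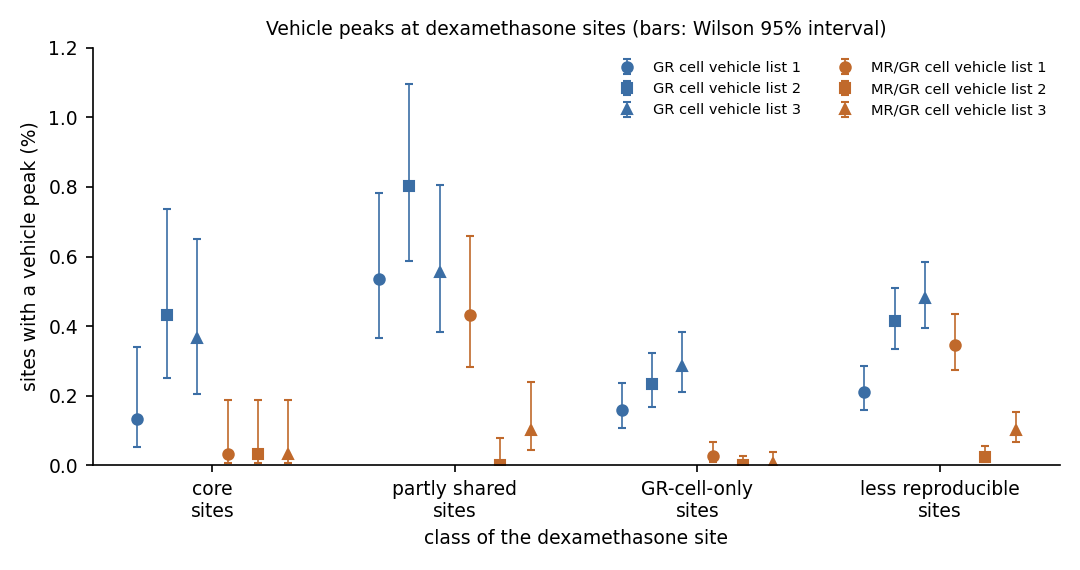
Points give the percent of sites with a peak of each vehicle list (blue, GR cell; orange, MR/GR cell; the symbol marks the list number), with Wilson 95% intervals, for the 4 classes of dexamethasone sites. Core sites, at the left, lie at 0.0331% to 0.431%, within the spread of the other classes.

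Seen from the vehicle lists, 3.28%, 5.46% and 4.82% of the peaks of GR-cell vehicle lists 1 to 3 were at core sites (4.52% ± 1.12, mean ± SD, n = 3 lists). In the MR/GR cell the shares were 0.758% (1 of 132 peaks), 9.09% (1 of 11) and 2.5% (1 of 40), or 4.12% ± 4.40 (mean ± SD, n = 3 lists). The lists of the lines overlapped. The GR-cell mean was 0.406 points higher (two-sided exact permutation p = 0.9, where 3 lists against 3 cannot give less than 0.1). Its sign turned without MR/GR-cell vehicle list 1 (-1.27) or 3 (-0.402), GR-cell vehicle list 2 (-0.0645) or MR/GR-cell dexamethasone list 1 (-0.191).

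Of the 22 core sites with a vehicle peak, 18 were in 1 vehicle list, 2 were in 2 lists, 1 was in 3 lists and 1 was in all 6. The centres of the 31 vehicle peaks lay a median of 54.3 bp from the mean centre of the 6 dexamethasone peaks (0.833 to 380 bp). One core site was called in all 12 lists of the study, on chromosome 3 at 119395820 to 119396259. Its dexamethasone centres were at 119396036.5, 119396037.5 and 119396047.5 in the GR cell and at 119396033.5, 119395961.5 and 119395974.5 in the MR/GR cell, and its nearest neighbour was 27.1 kb away. It was the single core site behind the value of every MR/GR-cell vehicle list.

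The core site on chromosome 19, 41731819 to 41732334, was in all 3 GR-cell vehicle lists and in no MR/GR-cell vehicle list. Its 6 centres were spread over 193 bp, more than at most core sites. Vehicle peaks of 2 GR-cell lists were at the core site on chromosome 6, 35695681 to 35696104, and at one on chromosome 8. A peak of 1 GR-cell list was at chromosome 6, 35699619 to 35700042, and at another site on chromosome 8. The chromosome 6 sites both belong to the group of 5 and each had 24 dexamethasone peaks within 10 kb over the 6 lists, against 6 for the site on chromosome 3, which are its own. Vehicle peaks at core sites thus occurred both in a dense group and at a site that stood alone. The named sites with 1 vehicle list were picked for many dexamethasone peaks nearby, so their crowding is set by the choice. Most core sites with a vehicle peak had only their own 6 dexamethasone peaks within 10 kb. Among all core sites 49.7% had another site within 10 kb, so this is not read as a trait of sites with a vehicle peak.

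Core sites were spread over all 22 numbered chromosomes and X, in unequal shares of the sites in 3 GR-cell lists. Chromosome 20 had the highest share, with 130 core sites, 20% of its 650 sites in 3 GR-cell lists (Wilson 95% interval 17.1 to 23.2), followed by chromosome 22 with 82 (18.7%, 15.3 to 22.6). The lowest were chromosome X with 37 (5.61%, 4.10 to 7.64), chromosome 13 with 40 (7.58%, 5.61 to 10.2) and chromosome 21 with 24 (9.60%, 6.54 to 13.9). The autosomes together had 13.4%, and chromosome X minus autosomes was -7.77 points (Newcombe 95% interval -9.35 to -5.69). Chromosome 2 held the most core sites, 301.

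With the sites in 3 MR/GR-cell lists as the base, these chromosomes lay close to the overall 93.5%. The core share was 94.9% on chromosome X, 93.02% on chromosome 13, 92.2% on chromosome 20 and 95.3% on chromosome 22, between 89.7% (chromosome 15) and 100% (chromosome 21) in all. The GR-cell lists hold nearly all of these sites, so these shares lie near their ceiling and do not bear on the uneven shares above. The rule used these lists, and neither set of shares carries a test.

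**Figure D5:**
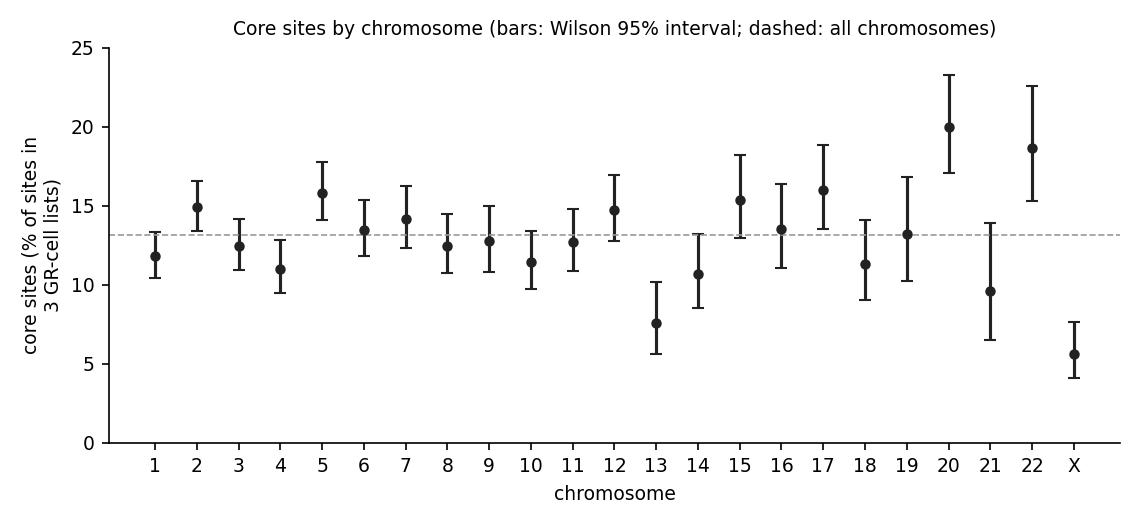
Points give core sites as a percent of the sites in 3 GR-cell lists on each chromosome, with Wilson 95% intervals, and the dashed line marks 13.2% for all chromosomes. Chromosome 20 is highest at 20% and chromosome X lowest at 5.61%.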

How the data were processed

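The deposited lists give chromosome, start and end per peak. Per the submitters' processing notes, the tools were HOMER 4.8.3, Picard 1.115, SAMtools 1.3.1, Bowtie and Trim Galore 0.4, with the hg19 build. The role of each and the calling threshold are not given in the sources used here. List names mark each list as set against input, and list numbers come from these names. The authors called peaks list by list, so each group has 3 lists (n = 3).

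Peaks sharing at least 1 bp were merged with Python 3.11.15 (numpy 2.4.6, SciPy 1.17.1, matplotlib 3.10.9), and bedtools 2.31.1 gave the same 43713 sites and 3017 core sites. Merging and classes were tested on simulated data with well separated sites, which cannot show errors where sites lie close together. Distances are between mean peak centres. Wilson and Newcombe intervals (95%) cover counting error over sites, which are not replicates. Vehicle lists were compared by exact permutation and sign-flip tests. No 2 lists were identical.

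Members, classes and lists were chosen with earlier results of these data known. Named sites were up to 6 core sites in the most vehicle lists, the 5 groups of most core sites and the 5 core sites with the smallest range of centres (chromosome 8 left out of the last). Ties for the vehicle lists were broken by the number of dexamethasone peaks within 10 kb, then by position. For 2 of the first 6, on chromosome 8, no coordinates are given. Motifs, sequences, gene starts and gene names were planned but not analysed here, since the gene and promoter tables at hand belong to GRCh38 and the lists to hg19.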

Additional observations from a re-analysis of the deposited data

How the results depend on the processing

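Of 65 alternatives for the main results, 54 kept direction and side of 0.05, or stayed within 1.5 times (counts) or the 95% interval (shares). Of the others, 5 moved outside these limits and 6 changed sign. The comparison of vehicle peaks between the lines could not pass 0.05 in any of them, so only its sign could change. Leaving out 1 list gave 3020 to 4921 core sites, with 4921 without MR/GR-cell dexamethasone list 1. It gave 11.5% to 13.2% of core sites with another core site within 10 kb, and -9.91 to -6.53 points for chromosome X minus autosomes, the highest share of close sites and the largest gap again without that list. The share of close core sites was 2.85% within 2 kb and 29.1% within 50 kb, by construction. Leaving out 1 list gave -0.0738 to -0.00658 points for vehicle peaks at core minus other sites. That difference was 0.0528 with GR-cell-only sites as the other sites, a comparison chosen after seeing the data, like those with partly shared sites and with the sites lacking list 1 alone. Over 19 alternatives its exact permutation p ranged from 0.0625 to 0.781. Those that left out 1 vehicle list could not pass 0.05, since too few arrangements remain, so only the sign could change in them. For the share of vehicle peaks at core sites, GR cell minus MR/GR cell, leaving out 1 list gave -1.27 to 2.89 points, and peaks cut to 200 bp gave -0.0138; the cause was not tested. Taking list numbers as pairs leaves this difference at 0.406 by construction (exact sign-flip permutation p = 1.0, 3 pairs). That test has 8 arrangements, too few to pass 0.05. Deviations of peak centres of same-numbered lists correlated at -0.0394, 0.0423 and -0.0228 over 3017 core sites. Those of differently numbered lists correlated at -0.0434 to 0.0571. Whether such deviations could show a pairing of the lines was not tested. The named sites and groups kept their numbers of lists and core sites in all 78 alternatives run for them. For the groups, leaving out a list loosens the rule and could hardly remove a core site. Merging peaks across a gap could not lower the number of lists at a site. Sites chosen for a small range of centres could not lose a list under the other ways of merging either. These numbers were therefore largely fixed by the choice. Motif, gene-start and gene-list alternatives were not run. Read depth is unknown, so a site outside the core may lie under the calling threshold of a short list.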
